A study of Mus musculus with 6 samples.

Results

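The T cell lineage genes described here are 10 genes taken by symbol from RNA-seq counts of mouse subcutaneous white adipose tissue (scWAT), out of 55401 genes counted. They are *Cd3d*, *Cd3e* and *Cd3g*, which encode chains of the CD3 complex; *Cd4*, *Cd8a* and *Cd8b1*, which encode the coreceptors; *Lck* and *Zap70*, which encode tyrosine kinases; and *Foxp3* and *Gata3*, which encode transcription factors. The rule uses symbols alone, though the genes were proposed with earlier results of these data known, and all 10 passed the filter on low counts. Total RNA of scWAT came from 8-week-old male mice, 3 in each of 2 groups, kept at room temperature. By the study's methods both groups carried floxed *Yap* and *Taz* alleles. The control mice, labelled WT and called YT-FF here, had no Cre recombinase. The other group, labelled YT-AKO, had the genotype Yapfl/fl/Tazfl/fl;AdipoqCre. The *Adipoq* promoter drives Cre in mature adipocytes, so T cells were not the targeted cells.

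T cells recognize antigen through a receptor whose variable chains signal by way of the CD3 proteins, with the coreceptor CD4 on helper and regulatory T cells or CD8 on cytotoxic T cells. The kinase LCK, held at the coreceptor tails, phosphorylates the CD3 and zeta chains, and ZAP70 docks there and passes the signal on. Adipose tissue is known to hold resident regulatory T cells marked by FOXP3, while GATA3 specifies T helper type 2 cells and is also made by group 2 innate lymphoid cells.

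The CD3 genes share 1 cluster on chromosome 9 (mm10; GENCODE vM25). *Cd3g* lies at chr9:44969572-44980431 on the minus strand and *Cd3d* at chr9:44981786-44987339 on the plus strand, so the pair start back to back across a gap of 1354 bases. *Cd3e*, at chr9:44998740-45009627 on the minus strand, lies 11400 bases beyond *Cd3d*. The 250 bases upstream of each start are shown because the 3 genes encode partners in a single complex and are read side by side in the results. They are RefSeq sequences of GRCm38.p6, and 8 of the 10 genes matched an entry. Capitals mark the ETS core motif AGGAAG on either strand and, in *Cd3g*, the GATA core motif AGATAA.
Cd3d, chr9:44981536-44981785, plus strand: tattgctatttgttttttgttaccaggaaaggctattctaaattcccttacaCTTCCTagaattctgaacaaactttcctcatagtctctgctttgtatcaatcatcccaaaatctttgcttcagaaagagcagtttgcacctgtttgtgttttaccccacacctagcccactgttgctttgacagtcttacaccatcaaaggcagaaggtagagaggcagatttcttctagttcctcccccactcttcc
Cd3e, chr9:45009612-45009861, minus strand: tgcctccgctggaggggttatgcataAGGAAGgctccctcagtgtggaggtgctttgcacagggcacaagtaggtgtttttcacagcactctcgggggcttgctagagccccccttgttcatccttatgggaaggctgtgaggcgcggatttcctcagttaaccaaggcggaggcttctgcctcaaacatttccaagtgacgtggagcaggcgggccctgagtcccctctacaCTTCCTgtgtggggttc
Cd3g, chr9:44980432-44980681, minus strand: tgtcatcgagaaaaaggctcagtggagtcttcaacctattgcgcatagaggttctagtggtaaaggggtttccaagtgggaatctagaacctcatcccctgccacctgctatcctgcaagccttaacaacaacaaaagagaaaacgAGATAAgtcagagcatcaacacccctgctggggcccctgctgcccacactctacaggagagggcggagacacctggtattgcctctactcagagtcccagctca

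Both strands of the 250 upstream bases were searched for 4 motifs, with 1 promoter taken per gene. AGGAAG was found in 4 of the 8 matched genes (*Cd3d*, *Cd3e*, *Lck* and *Zap70*) and in 29.2% of 27025 promoters of the same length. AGATAA was found in *Cd3g* alone and in 10.3% of promoters, the RUNX core TGTGGT in *Lck* alone and in 14.2%, and TATAAA in *Foxp3* alone and in 13.0%. The last bases of AGGAAG can overlap the start of the GATA motif, which did not occur in the 3 windows shown. These matches describe the letters of the windows.

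The 6 libraries held between 17740987 and 21838493 counted fragments. Of the targeted genes, *Yap1* gave 1622, 1300 and 1295 counts (YT-FF 1, 2, 3) and 649, 492 and 529 counts (YT-AKO 1, 2, 3). *Wwtr1*, the gene of TAZ, gave 1818, 1729 and 1918 counts (YT-FF 1, 2, 3) and 3015, 2253 and 2716 counts (YT-AKO 1, 2, 3), so *Wwtr1* ran against its label, and directions below are given for the libraries labelled YT-AKO. Total gene counts include exons outside a floxed part. The library YT-AKO 2 stood apart toward short genes: the median summed exon length of the gene of a counted fragment was 3157 bases there, 3973 and 3823 in YT-AKO 1 and 3, and 4614 to 4753 in YT-FF. Log2 fold change and exon length had a Spearman's rho of -0.376 across all tested genes, which are no replicates, and -0.283 without YT-AKO 2. Across the 10 T cell lineage genes, which share their libraries, rho was -0.842 with all 6 libraries. Where leaving out YT-AKO 2 turned a sign, changed a call or moved a value strongly, the value without it is given as well.

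*Cd4* alone among the 10 genes was called different, and it was lower in the libraries labelled YT-AKO. With edgeR's quasi-likelihood test (TMM normalization, adjusted p under 0.05 over 16807 genes), 1 of 10 was called lower, against 9.01% of all tested genes, and 0 of 10 were called higher, against 12.6%. At an unadjusted p under 0.05, 2 of the 10 were lower (*Cd4* and *Foxp3*), against 18.6% of all tested genes, and 0 were higher, against 22.2%, and DESeq2 and limma-voom each called 1 lower and 0 higher. DESeq2 called 12.6% of all genes it tested lower. The median log2 fold change of the 10 genes was -0.09, beside -0.02 for all tested genes, and it was -0.39 without YT-AKO 2. In bulk tissue, fewer T cells and less RNA per T cell cannot be told apart.

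**Figure D1:**
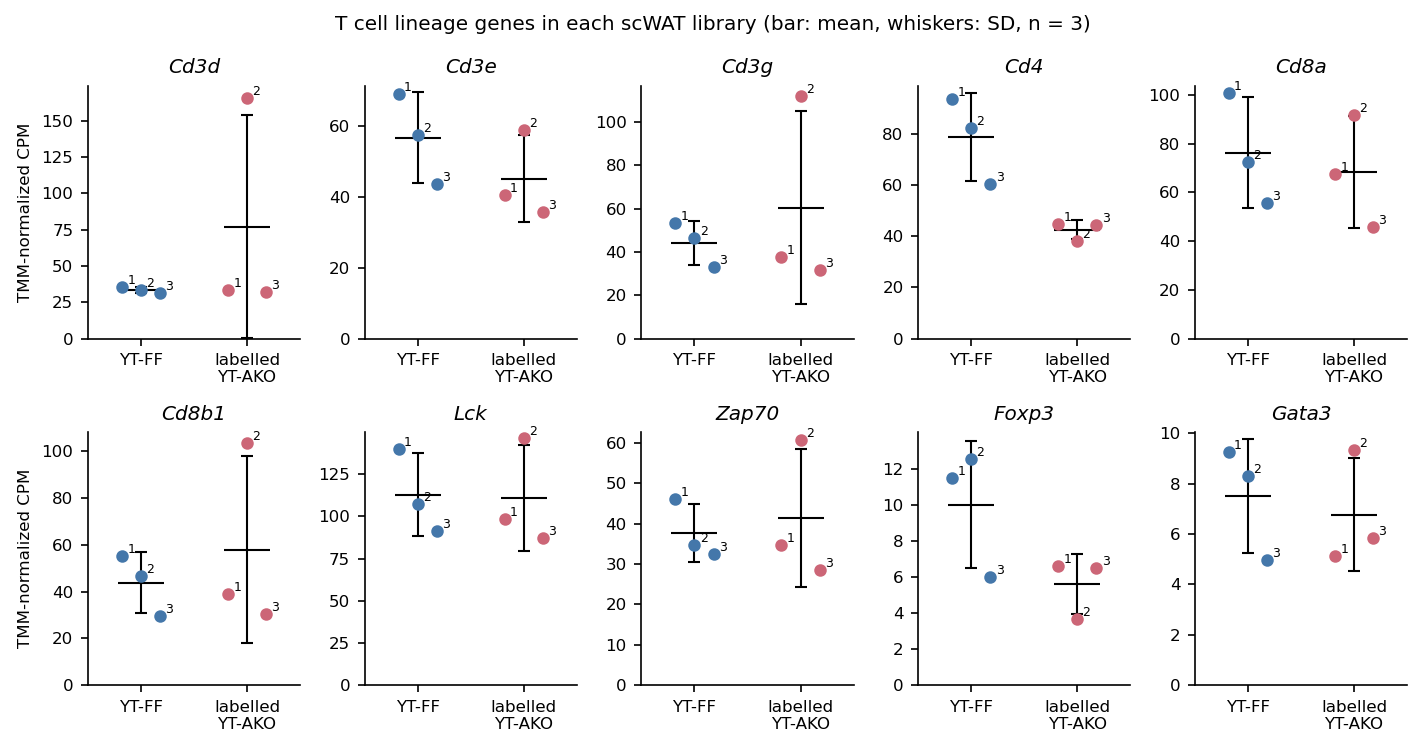
TMM-normalized CPM (counts relative to the normalized library size) of each of the 10 T cell lineage genes in YT-FF (blue) and in the libraries labelled YT-AKO (red); each point is 1 library with its number, the bar is the mean and the whiskers are the SD (n = 3). *Cd4* is the only gene whose groups do not overlap, and YT-AKO 2 is the highest library for *Cd3d*, *Cd3g*, *Cd8b1*, *Lck*, *Zap70* and *Gata3* and the lowest for *Cd4* and *Foxp3*.

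The CD3 genes did not pass the test, and YT-AKO 2 set the sign for *Cd3d* and *Cd3g*. *Cd3d* gave 839, 760 and 612 counts (YT-FF 1, 2, 3) and 571, 2806 and 545 counts (YT-AKO 1, 2, 3). In CPM, counts relative to the TMM-normalized library size, the YT-FF libraries ran from 31.5 to 35.8, YT-AKO 1 and 3 stood at 33.2 and 32.2, and YT-AKO 2 at 165. YT-AKO 2 thus lay above all others and the remaining 2 YT-AKO libraries lay within the YT-FF range. The log2 fold change was 1.20 ± 0.605 (SE, adjusted p = 0.174, edgeR), and -0.04 ± 0.115 without YT-AKO 2.

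*Cd3g* gave 1246, 1056 and 642 counts (YT-FF) and 651, 1895 and 534 counts (YT-AKO). YT-AKO 2 was again the highest of all 6 and the groups overlapped. Its log2 fold change was 0.45 ± 0.465 (SE, adjusted p = 0.490, edgeR), and -0.35 without YT-AKO 2. The third CD3 gene, *Cd3e*, is the longest of the 3, with 4080 exon bases against 3269 for *Cd3g* and 1815 for *Cd3d*. *Cd3e* gave 1619, 1306 and 846 counts (YT-FF) and 698, 999 and 603 counts (YT-AKO), with YT-AKO 2 inside the YT-FF range. The log2 fold change was -0.33 ± 0.246 (SE, adjusted p = 0.338, edgeR), and -0.58 without YT-AKO 2, where the adjusted p was 0.0527. Of the exon bases of *Cd3e*, 3.31% overlap *Gm48719*, and counting left out fragments that overlapped several genes.

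*Cd4* (chr6:124864692-124888221, minus strand) encodes the coreceptor for antigen on MHC class II and is also made by some dendritic cells in mice. It gave 2207, 1878 and 1174 counts (YT-FF) and 775, 650 and 756 counts (YT-AKO). The groups did not overlap, with all 3 libraries labelled YT-AKO under the lowest YT-FF library, an arrangement seen in 25.8% of all tested genes, and no other of the 10 genes showed it in CPM. The mean fell from 79.0 ± 17.1 CPM (SD, n = 3) to 42.7 ± 3.78, a 1.85-fold difference, with a log2 fold change of -0.89 ± 0.196 (SE, adjusted p = 0.0253, edgeR). *Cd4* was called in 13 of 17 other settings, with adjusted p between 0.00176 and 0.122 over all 17. It was not called without YT-FF 1 (adjusted p = 0.122) or without YT-FF 2 (adjusted p = 0.122), fits in which 0 and 2 of all tested genes were called lower. Without YT-AKO 2 it remained called (log2 fold change -0.82, adjusted p = 0.0148) as the only 1 of the 10, against 14.0% of all genes called lower in that fit.

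*Cd8a* and *Cd8b1* encode the chains of the CD8 coreceptor and lie 35932 bases apart on the plus strand, at chr6:71373427-71379173 and chr6:71322788-71337494. *Cd8a* gave 2369, 1646 and 1083 counts (YT-FF) and 1163, 1557 and 777 counts (YT-AKO). *Cd8b1* gave 1291, 1061 and 572 counts (YT-FF) and 672, 1760 and 518 counts (YT-AKO). The groups overlapped for both genes, and YT-AKO 2 was the highest library for *Cd8b1* but not for *Cd8a*. The log2 fold change of *Cd8a* was -0.16 ± 0.301 (SE, adjusted p = 0.715, edgeR), and -0.43 without YT-AKO 2. That of *Cd8b1* was 0.40 ± 0.459 (SE, adjusted p = 0.532, edgeR), and -0.33 without YT-AKO 2. *Cd8b1* has 1483 exon bases, the fewest of the 10 genes, and *Cd8a* has 3637.

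The kinase genes differed by less than the spread between libraries. *Lck* (chr4:129548344-129573641, minus strand) gave 3285, 2440 and 1777 counts (YT-FF) and 1697, 2483 and 1475 counts (YT-AKO). *Zap70* (chr1:36761798-36782818, plus strand) gave 1079, 789 and 630 counts (YT-FF) and 595, 1030 and 483 counts (YT-AKO). For both genes the groups overlapped, with YT-AKO 3 the lowest library in counts. The log2 fold change was -0.03 ± 0.248 for *Lck* (SE, adjusted p = 0.941, edgeR) and 0.13 ± 0.295 for *Zap70* (SE, adjusted p = 0.760, edgeR). Without YT-AKO 2 the values were -0.28 and -0.26.

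The transcription factor genes had the lowest counts of the 10. *Foxp3* (chrX:7573644-7595245, plus strand), the lineage factor of regulatory T cells, gave 269, 285 and 116 counts (YT-FF) and 113, 62 and 110 counts (YT-AKO). YT-FF 1 and 2 lay above every YT-AKO library, and YT-FF 3 lay among them in CPM (5.97 against 3.66 to 6.57). The mean was 9.99 ± 3.52 CPM (SD, n = 3) in YT-FF and 5.58 ± 1.66 in YT-AKO, with a log2 fold change of -0.84 ± 0.357 (SE, adjusted p = 0.118, edgeR), and it was not called in any of 17 other settings. Of its exon bases, 31.5% overlap *Ppp1r3f*, *Gm36995*, *Flicr* or *Ccdc22*, and fragments overlapping another gene were not counted. *Gata3* (chr2:9857078-9890034, minus strand) gave 217, 189 and 96 counts (YT-FF) and 88, 158 and 99 counts (YT-AKO), and the groups overlapped. Its log2 fold change was -0.15 ± 0.334 (SE, adjusted p = 0.757, edgeR), and -0.46 without YT-AKO 2.

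**Figure D2:**
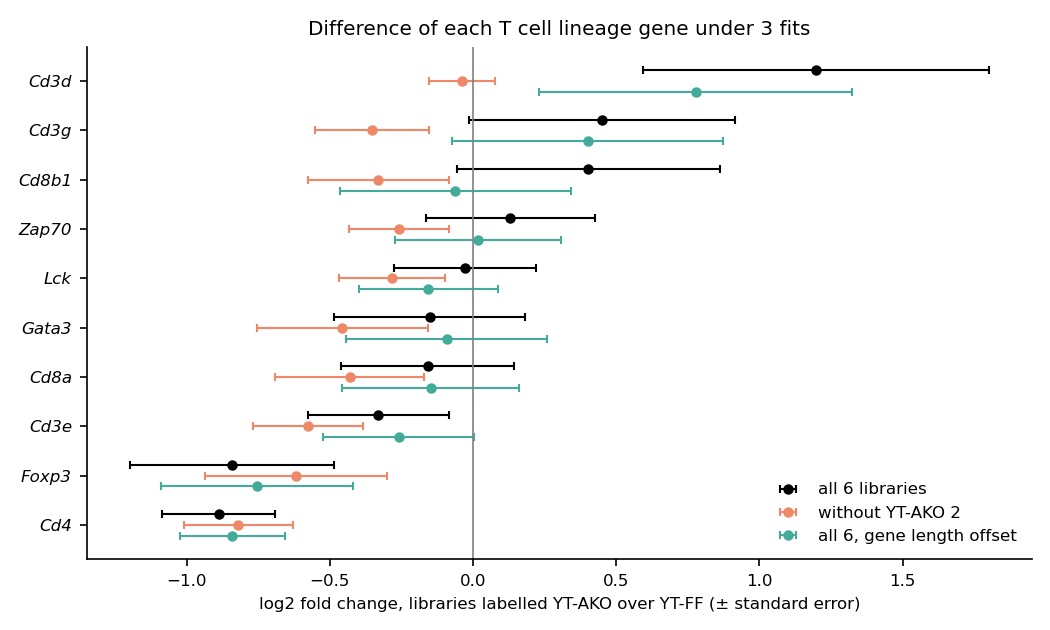
Log2 fold change of each T cell lineage gene, libraries labelled YT-AKO over YT-FF, with its standard error, in the edgeR fit of all 6 libraries (black), without YT-AKO 2 (orange) and with a gene length offset (green). *Cd4* keeps its place under all 3 fits (-0.89, -0.82 and -0.84), while *Cd3d*, *Cd3g*, *Cd8b1* and *Zap70* cross 0 when YT-AKO 2 is left out.

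Leaving out YT-AKO 2 changed the sign of 4 of the 10 genes, *Cd3d*, *Cd3g*, *Cd8b1* and *Zap70*. With all 6 libraries, 6 had a negative and 4 a positive log2 fold change, and without YT-AKO 2 all 10 were negative. Relative to the mean of YT-AKO 1 and 3, the CPM in YT-AKO 2 was 5.06-fold for *Cd3d*, 3.22-fold for *Cd3g*, 2.98-fold for *Cd8b1*, 1.55-fold for *Cd3e*, 0.854-fold for *Cd4* and 0.560-fold for *Foxp3*. The ratios tended to be higher for genes with shorter exons, with Spearman's rho of -0.782 across the 10 genes, which share their libraries and are not replicates. The order was not strict: *Cd3g*, with 3269 exon bases, stood above *Lck* (2929 bases, 1.58-fold) and *Zap70* (2992 bases, 1.92-fold). *Cd3e* and *Cd4* have nearly equal exon lengths, 4080 and 4032 bases, and stood at 1.55 and 0.854. With an offset for gene length, 7 of the 10 log2 fold changes were negative with a median of -0.12, and 1 gene, *Cd4*, was called lower (-0.84, adjusted p = 0.0307), against 4.54% of all tested genes.

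**Figure D3:**
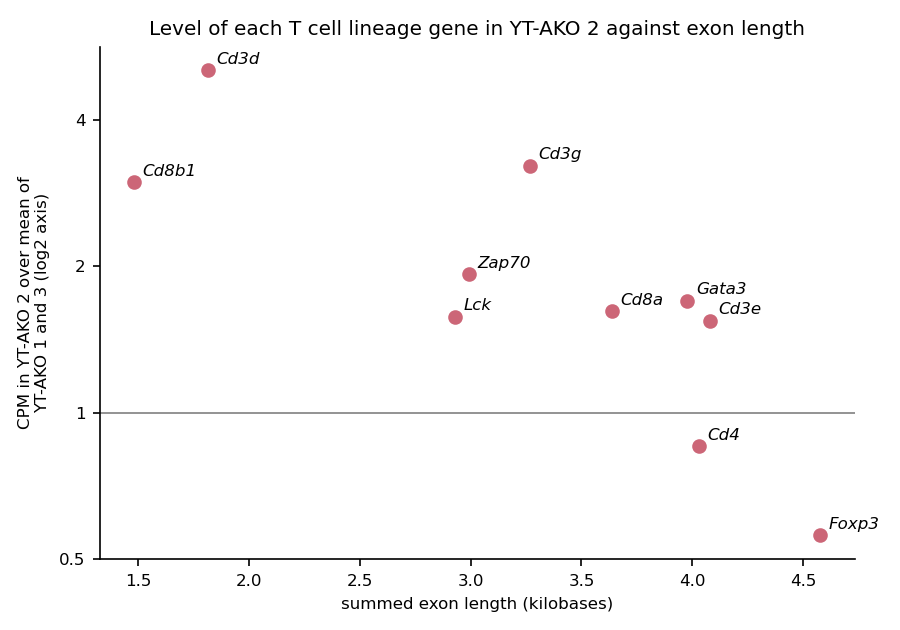
CPM in YT-AKO 2 over the mean of YT-AKO 1 and 3 (log2 axis) against summed exon length in kilobases; each point is 1 T cell lineage gene and the grey line is equality. The ratio runs from 5.06 for *Cd3d* down to 0.560 for *Foxp3*, the gene with the longest exons.

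Levels of different genes were compared per exon length, as TPM, in which counts per exon length are taken relative to their sum in the library. In YT-FF, *Lck* had the highest mean level, 147 ± 35.6 TPM (SD, n = 3), then *Cd8b1* (113 ± 36.8), *Cd8a* (80.2 ± 25.7), *Cd4* (74.8 ± 18.5), *Cd3d* (70.3 ± 6.85), *Cd3e* (53.0 ± 13.4), *Cd3g* (51.7 ± 13.5) and *Zap70* (48.0 ± 10.2). *Foxp3* and *Gata3* followed at 8.38 ± 3.23 and 7.22 ± 2.40. Neighbours in this order overlapped in their libraries except *Zap70* and *Foxp3*. TPM carries no TMM scaling, and on this scale the median gene of all tested had a log2 ratio of -0.66 between the groups. The 10 genes had a median of -0.82 on it. A lower mean in YT-AKO was found for 9 of them and for 13336 of all 16807 tested genes. For 7 of them YT-AKO lay below YT-FF without overlap, an arrangement found in 54.5% of all tested genes. *Cd3e* had 65.0, 55.5 and 38.5 TPM (YT-FF) and 27.7, 25.3 and 23.7 TPM (YT-AKO), and *Cd4* had 89.7, 80.8 and 54.1 against 31.2, 16.7 and 30.1. Their log2 ratios of -1.05 and -1.53 lay below that of the median gene, and without YT-AKO 2 they were -1.04 and -1.29. *Cd3d* had a positive ratio (0.30) through YT-AKO 2 alone: it stood at 160 TPM there and at 51.0 and 48.2 in YT-AKO 1 and 3, both below the YT-FF libraries (62.6 to 75.7), and the ratio was -0.50 without YT-AKO 2.

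Ratios within a library do not depend on how libraries are scaled. *Cd4* counts per *Cd3e* count, between genes of nearly equal length, were 1.36, 1.44 and 1.39 (YT-FF) and 1.11, 0.651 and 1.25 (YT-AKO). The YT-FF libraries lay close together and every library labelled YT-AKO lay below them (exact permutation test, two-sided p = 0.1, the smallest that 3 against 3 allows; 0.175 adjusted over 14 ratios). The mean ratio in YT-AKO was 0.720 times that in YT-FF, and 0.847 times without YT-AKO 2. *Cd8a* per *Cd3e* was 1.46, 1.26 and 1.28 (YT-FF) and 1.67, 1.56 and 1.29 (YT-AKO), which overlapped (exact permutation p = 0.2). *Cd4* per *Cd8a* was 0.932, 1.14 and 1.08 (YT-FF) and 0.666, 0.417 and 0.973 (YT-AKO), with YT-AKO 3 inside the YT-FF range (exact permutation p = 0.2). *Lck* per *Cd3e* averaged 2.00 ± 0.119 (SD, n = 3) in YT-FF and 2.45 ± 0.0280 in YT-AKO, so the 3 YT-AKO libraries were nearly equal and all higher (exact permutation p = 0.1). *Cd3d*, *Cd3g*, *Cd8b1* and *Zap70* per *Cd3e* were also higher in every YT-AKO library (exact permutation p = 0.1 each, 0.175 adjusted over 14 ratios). All 5 genes, *Lck* included, have shorter exons than *Cd3e*, with 1483 to 3269 bases against 4080. *Cd4*, *Cd8a* and *Gata3* are closer to it in length, with 4032, 3637 and 3978 bases. Of these, *Cd4* per *Cd3e* was lower in every YT-AKO library, and the *Cd8a* and *Gata3* ratios overlapped between the groups. The part of exon length in these ratios was not tested. *Foxp3* per *Cd4* was 0.122, 0.152 and 0.0988 (YT-FF) and 0.146, 0.0954 and 0.146 (YT-AKO), which overlapped (exact permutation p = 1).

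**Figure D4:**
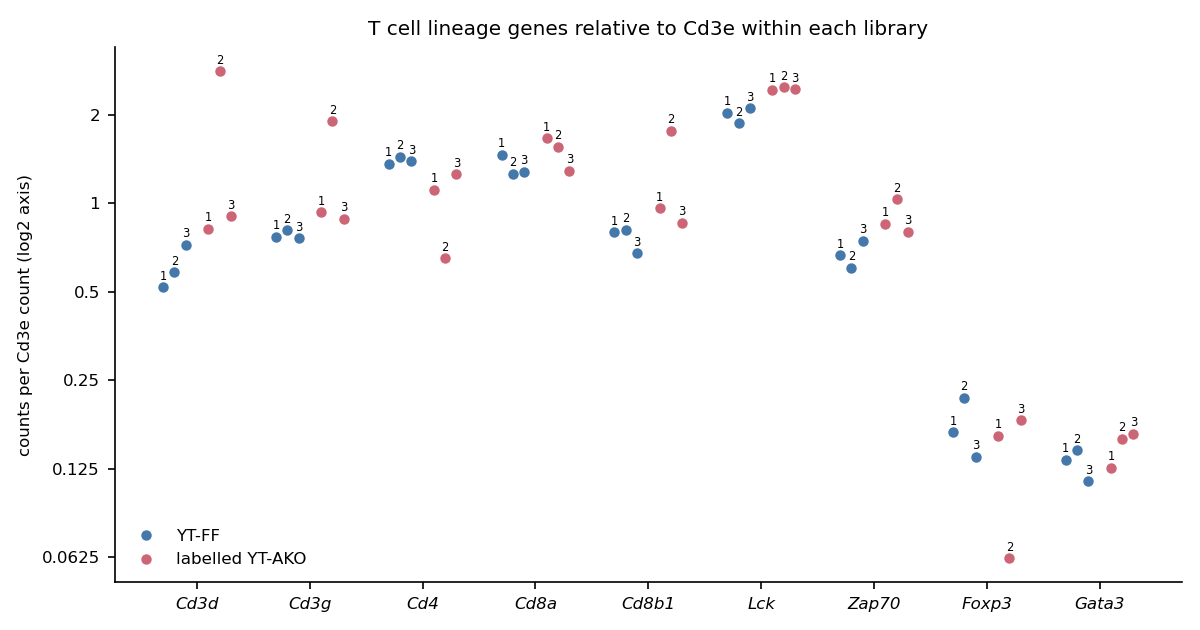
Counts of each other T cell lineage gene per *Cd3e* count within each library (log2 axis), for YT-FF (blue) and libraries labelled YT-AKO (red); numbers are library numbers. *Cd4* lies lower in all 3 YT-AKO libraries, and *Cd3d*, *Cd3g*, *Cd8b1*, *Lck* and *Zap70* lie higher.

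How the 10 genes varied together differed with and without YT-AKO 2. Pearson's r over the 6 libraries with the mean standardized log2 CPM of the 3 CD3 genes was 0.982 for *Cd8b1*, 0.971 for *Zap70*, 0.935 for *Lck*, 0.836 for *Gata3*, 0.830 for *Cd8a*, -0.04 for *Cd4* and -0.28 for *Foxp3*. The CD3 profile stood at 1.52 in YT-AKO 2 and at 0.422 or less in every other library. Over the 5 libraries without YT-AKO 2, r was 0.866 for *Cd4*, 0.882 for *Foxp3* and 0.895 to 0.981 for the other 5 genes (*Cd8a*, *Cd8b1*, *Lck*, *Zap70* and *Gata3*). *Cd3d* and *Cd3e* had r = 0.384 with each other over 6 libraries and 0.816 over 5. These values describe few libraries that share group and depth.

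The 10 genes outside the list whose profile was most like that of the CD3 genes had r from 0.987 to 0.998 over the 6 libraries. They were *Il16*, *Cd2*, *Tomm34*, *Slc17a9*, *Gm43703*, *Vps16*, *Brf1*, *AC122453.1*, *Ccr7* and *Trac*. *Trac* is the constant segment of the T cell receptor alpha chain, *Cd2* a T cell adhesion molecule and *Ccr7* the lymph node homing receptor. *Trac* gave 2277, 1949 and 1322 counts (YT-FF) and 1331, 2413 and 1017 counts (YT-AKO). Over the 5 libraries without YT-AKO 2 their r ran from 0.909 to 0.999. None of the 10 passed the edgeR test, with log2 fold changes from 0.02 to 0.32. They were picked by their profile in these same 6 libraries, so the absence of a call follows from that choice. Without YT-AKO 2, *Cd2*, *Ccr7* and *Trac* had log2 fold changes of -0.35, -0.22 and -0.28.

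Over all 6 libraries, calls among other T cell genes were, with 1 exception, lower in the libraries labelled YT-AKO. Of all tested genes, 9.01% were called lower and 12.6% higher by edgeR, and 4.54% were called lower with the length offset. In the fits without YT-FF 1 and without YT-FF 2, which called 0 and 2 of all tested genes lower, 0 genes of the 5 T cell lists described next were called lower by edgeR, and *Cd4* kept log2 fold changes of -0.75 and -0.86. Of 21 genes of T cell receptor chains and proximal signalling, 5 were called lower and 0 higher (edgeR; 7 and 0 at an unadjusted p under 0.05), with a median log2 fold change of -0.24 and 9 lower without YT-AKO 2, 3 without YT-AKO 1 and 3 without YT-AKO 3. *Grap2*, an adaptor downstream of LAT, stood at 130, 111 and 78.3 CPM (YT-FF) and 46.6, 52.7 and 45.6 CPM (YT-AKO) (log2 fold change -1.14, adjusted p = 0.0189). *Rasgrp1*, a Ras activator in T cells, had a log2 fold change of -1.31 (adjusted p = 0.0189, edgeR). *Trbc2* and *Trac*, the most abundant of the list per length, had 0.65 and 0.16 (adjusted p = 0.313 and 0.731, edgeR), or -0.16 and -0.28 without YT-AKO 2, and *Trbc2* is nearly identical to *Trbc1*, so its counts are uncertain. These examples differ in length, with 6243 and 5600 exon bases for *Grap2* and *Rasgrp1* and 692 and 935 for *Trbc2* and *Trac*. With the length offset, 2 of the 21 were called lower, *Rasgrp1* and *Grap2*. *Themis*, a T cell signalling gene named after its values were seen, was also called lower (-1.33).

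Of 15 T cell transcription factors, 7 were called lower and 0 higher (edgeR), with a median log2 fold change of -0.73. With the length offset, 5 were lower: *Tcf7*, *Runx3*, *Ikzf1*, *Ikzf3* and *Ets1*. Without YT-AKO 2, 9 were called lower and 1 higher. The higher gene was *Zbtb7b*, named after its values were seen (0.52, adjusted p = 0.0171, edgeR). Over all 6 libraries *Zbtb7b* had 0.32 (adjusted p = 0.306, edgeR). *Ikzf3*, *Ikzf1* and *Ets1*, which B cells also express, had log2 fold changes of -2.03, -1.13 and -1.13 (adjusted p = 0.0166, 0.0166 and 0.0185, edgeR). *Tcf7*, a factor of naive and memory T cells, had -0.73 (adjusted p = 0.0601, edgeR) and was called without YT-AKO 2 (-0.88, adjusted p = 0.0188). Of 12 costimulation and checkpoint genes, 3 were called lower and 1 higher (edgeR), with a median log2 fold change of -0.44. With the length offset, 4 were called lower and 0 higher, with a median of -0.70. *Btla*, an inhibitory receptor of B and T cells, had 167, 162 and 139 CPM (YT-FF) and 76.8, 56.0 and 51.2 CPM (YT-AKO), with no overlap (log2 fold change -1.35, adjusted p = 0.0171, edgeR). *Cd28*, the main costimulatory receptor of T cells, fell by 1.37 on the log2 scale (adjusted p = 0.0171, edgeR), and *Cd27* had -0.30 (adjusted p = 0.438, edgeR), or -0.61 without YT-AKO 2. The other called genes, named after their values were seen, were *Cd40lg*, the ligand of CD40, lower (-1.21), and *Lag3*, an inhibitory receptor, higher (0.96). *Lag3* was also called by DESeq2 (adjusted p = 0.00818) and by edgeR without YT-AKO 2 (0.67, adjusted p = 0.0186). It was not called with the length offset (0.66, adjusted p = 0.0737) or with library totals alone, and in no fit that left out 1 YT-FF library. The fits without YT-FF 1 and without YT-FF 2 called 0 of all tested genes higher.

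In the naive T cell homing list of 5 genes, which had a median log2 fold change of -0.21, 1 was called lower by edgeR. *Il7r* had -0.86, *Klf2* 0.13 and *Ccr7* 0.15 (adjusted p = 0.0679, 0.635 and 0.702, edgeR), and the last 2 turned to -0.0759 and -0.22 without YT-AKO 2. In the regulatory T cell list of 10 genes, 1 was called lower (edgeR; 5 at an unadjusted p under 0.05, 3 by DESeq2, 4 without YT-AKO 2 and 0 without YT-AKO 3), and the median was -0.63. That gene was *Ikzf2*, the gene of the regulatory T cell factor Helios, with 24.1, 22.7 and 16.8 CPM in YT-FF and 12.6, 8.02 and 7.09 in YT-AKO (log2 fold change -1.20, adjusted p = 0.0261). *Il2ra*, the high-affinity IL-2 receptor chain, had -0.63, *Tnfrsf4* 0.47 and *Tnfrsf18* 0.06 (adjusted p = 0.0613, 0.286 and 0.925, edgeR). Without YT-AKO 2 these were -0.68, 0.06 and -0.48, and *Il2ra* was called (adjusted p = 0.0357). With the length offset 0 of the regulatory T cell list were called lower by edgeR.

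Lists of other lymphocytes that share these genes gave no calls in edgeR over all 6 libraries, with median log2 fold changes of 0.16 for NK and cytotoxic, -0.46 for ILC2 and type 2 and -0.23 for gamma delta T cell genes. Without YT-AKO 2 the medians were -0.29, -0.35 and -0.54, and 2, 1 and 0 genes were called lower: *Klrk1*, *Klrd1* and *Il17rb*. *Klrd1*, named after its values were seen, was also called lower with the length offset (-0.98, adjusted p = 0.0404). Of 13 tested NK and cytotoxic genes (15 listed), 0 were called (2 lower and 0 higher at an unadjusted p under 0.05, and 0 by DESeq2 or limma-voom), and *Ccl5* and *Nkg7* had log2 fold changes of 0.71 and 0.56, or 0.11 and 0.0932 without YT-AKO 2. *Klrk1* and *Ncr1* had -0.56 and -1.14 (adjusted p = 0.0710 and 0.106, edgeR). Of 6 tested ILC2 and type 2 genes (9 listed), 0 were called (2 lower at an unadjusted p under 0.05, 0 by DESeq2 or limma-voom), with *Rora* at -0.22, *Hpgds* at -0.71 and *Il17rb* at -0.80. Of 6 tested gamma delta T cell genes (7 listed), 0 were called (0 at an unadjusted p under 0.05 and 0 by DESeq2 or limma-voom), and *Sox13*, *Tcrg-C1*, *Il23r* and *Tcrg-C4* had -0.29, -0.09, -1.17 and -0.62. Without YT-AKO 2, *Tcrg-C1* had -0.65 and *Il23r* -0.69.

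**Figure D5:**
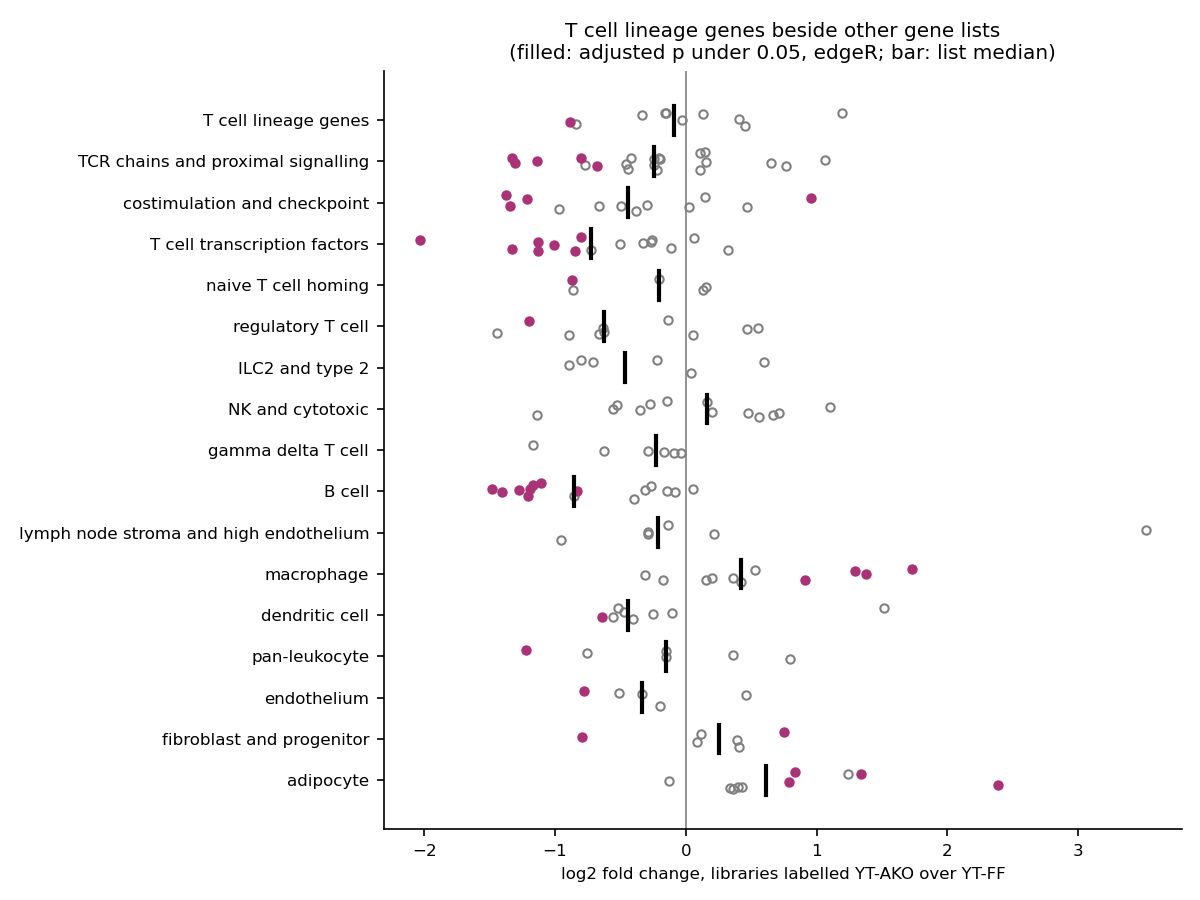
Log2 fold change of every tested gene of the T cell lineage genes and of 16 other lists, libraries labelled YT-AKO over YT-FF; filled points passed the edgeR test (adjusted p under 0.05) and bars are list medians. The T cell lineage genes center near 0 (-0.09) with *Cd4* the only filled point, while the B cell list centers at -0.86 and the macrophage and adipocyte lists above 0.

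Markers of B cells and of the lymph node were present in every library, beside the T cell genes. Of 15 B cell genes, 8 were called lower and 0 higher (edgeR), with 14 lower without YT-AKO 2 and 9 lower with the length offset. Their summed level was 3034 to 3970 CPM in YT-FF and 1869 to 3336 in YT-AKO. *Bank1* and *Cr2* had log2 fold changes of -1.48 and -1.11 (adjusted p = 0.0124 and 0.0166, edgeR), and *Ighm* and *Igkc* had -0.27 and 0.06 (adjusted p = 0.510 and 0.943, edgeR). Without YT-AKO 2 these were -0.63, which was called (adjusted p = 0.0192), and -0.78 (adjusted p = 0.0749).

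Of 6 tested genes of lymph node stroma and high endothelium (7 listed), 0 were called by edgeR or limma-voom (1 lower at an unadjusted p under 0.05, edgeR). Their median log2 fold change was -0.21, and their summed level was 185 to 228 CPM in YT-FF and 127 to 208 in YT-AKO, with *Cxcl13* at 111 ± 18.2 and 90.7 ± 21.7 CPM (SD, n = 3) and *Glycam1* at 73.8 ± 6.90 and 60.6 ± 17.3. *Chst4* had a log2 fold change of -0.95, and *Ccl19*, which has near-identical copies, stood at 31.0 CPM in YT-AKO 2 and at 0.256 to 2.37 in the other libraries, with a log2 fold change of 3.52, or -0.0323 without YT-AKO 2. DESeq2 called 1 listed gene higher, *Ccl21a*, named after its values were seen, which did not pass the edgeR filter. It gave 1, 3 and 3 counts (YT-FF) and 15, 144 and 4 counts (YT-AKO). The summed level of the 10 T cell lineage genes was 389 to 615 CPM in YT-FF and 408, 790 and 349 in YT-AKO 1 to 3. The part of lymph node or B cell content in the T cell values was not tested.

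The lists of other cells had median log2 fold changes of -0.15 (pan-leukocyte), -0.44 (dendritic cell), 0.42 (macrophage), 0.61 (adipocyte), -0.34 (endothelium) and 0.25 (fibroblast). Of these, 6 pan-leukocyte genes had 1 called lower, *Ptprc* (log2 fold change -1.22, adjusted p = 0.0190, edgeR), and *Cd53*, *Coro1a* and *Cd52* had -0.76, 0.36 and 0.80, or -0.53, -0.12 and -0.11 without YT-AKO 2, where *Cd53* was called lower. Of 8 dendritic cell genes, 1 was lower, *Flt3* (-0.64), and *Batf3* and *Siglech* had 1.51 and -0.41, or 0.68 and -0.71 without YT-AKO 2, where *Siglech* was called lower. Of 11 macrophage genes, 4 were called higher and 0 lower (edgeR), among them *C1qa*, *C1qb* and *C1qc* with log2 fold changes of 1.73, 1.38 and 1.29, while *Lyz2* had 0.53 (adjusted p = 0.106, edgeR), or 0.33 without YT-AKO 2. Of 10 adipocyte genes, 4 were called higher, including *Cfd*, *Fabp4* and *Pnpla2* (2.39, 1.34 and 0.79, or 1.78, 0.89 and 0.82 without YT-AKO 2), and their summed level was 18171 to 23907 CPM in YT-FF and 40447 to 84315 in YT-AKO, highest in YT-AKO 2. Of 5 endothelial genes, 1 was lower, *Kdr* (-0.78), with *Pecam1*, *Cdh5* and *Vwf* at -0.20, -0.51 and 0.46. *Cdh5* had -0.25 without YT-AKO 2. Of 6 fibroblast genes, *Pi16* was called higher (0.75) and *Dpp4* lower (-0.79), with *Col1a1* and *Dcn* at 0.40 and 0.39, both called higher without YT-AKO 2 (0.70 and 0.47). The fourth called macrophage and adipocyte genes, named after their values were seen, were *Fcgr1* (0.91) and *Lipe* (0.84). With the length offset, *Ptprc*, *Flt3* and *Kdr* were not called (-0.59, -0.41 and -0.40, adjusted p = 0.0617, 0.123 and 0.104, edgeR). In that fit *Cd53* was called lower (-1.08) and *Vwf* higher (1.07, adjusted p = 0.0299, edgeR). The macrophage list then had 4 higher, the adipocyte list 2 higher, and the fibroblast list 2 higher and 1 lower. The part of these cell types in the T cell values was not tested.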

How the data were processed

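The 6 scWAT libraries were grouped by the genotype in their labels. The authors aligned paired-end reads to mm10 (HISAT2), counted fragments on GENCODE vM25 exons (featureCounts 2.0.1, unstranded) and deposited raw counts per gene. Counting skipped multi-mapping fragments and those shared by several genes.

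In R 4.3.3, edgeR 4.0.16 was used with TMM normalization, a low-count filter (filterByExpr, 10 counts, 15 in total), non-robust quasi-likelihood testing and Benjamini-Hochberg adjustment over 16807 genes. A call needed an adjusted p under 0.05. The study's own tool, DESeq2 (1.42.0 here), and limma-voom (limma 3.58.1) were alternatives. SE is the log2 fold change over the square root of F. TPM used summed exon lengths, and length offsets used a spline with 6 degrees of freedom per library. Ratios were compared by exact permutation.

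The 10 members and the lists were chosen with earlier results of these data known. All members are named; from each list, the 2 genes with the most counts per kilobase and the 2 with the smallest p are named, apart from a few that are left out. In simulated counts of these groups, 200 of 16807 genes were changed. There edgeR called 59 of 91 genes changed 4-fold, 10 of 109 changed 2-fold and 3 unchanged genes.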

Additional observations from a re-analysis of the deposited data

How the results depend on the processing

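edgeR recovered 10 of 109 genes changed 2-fold in simulated counts of these groups, so an uncalled difference of that size is not shown to be absent. The simulation changed 200 of 16807 genes, a smaller part than was called in the data, so its share recovered need not hold for the data. *Foxp3* and *Gata3* had the fewest counts. The count of members called higher was 0 under every setting. The count called lower was 1, *Cd4*, except with the replicate number as a block (0), with that block and the length offset (0), without YT-FF 1 and without YT-FF 2; over the 6 fits that left out a library it ran from 0 to 1. The cause was not tested. The deviations of same-numbered libraries had r = 0.126, -0.118 and -0.0893 for numbers 1 to 3. YT-AKO 1 correlated best with YT-FF 1, YT-AKO 2 with YT-FF 3 (0.160) and YT-AKO 3 with YT-FF 2 (0.131). With 3 libraries in each group, these values cannot show whether same-numbered libraries shared a batch or litter. The replicate block left 9 genes lower and 24 higher of all tested (22 and 59 with the length offset), and *Cd4* had -0.87 under the block (adjusted p = 0.0650) and -0.82 under block and length offset (adjusted p = 0.0717). Over all genes, 1515 were lower and 2121 higher; DESeq2 gave 2243 and 2880, and the length offset 763 and 1692. With library totals alone the median log2 fold change of all genes moved to -0.34 and the split to 2828 lower and 1137 higher, so *Cd8b1* and *Zap70* stood at -0.0109 and -0.24. The length offset put *Cd8b1* at -0.0613, and with the block it put *Cd8b1* at -0.15 and *Zap70* at -0.0442. Leaving out 1 library gave ranges that crossed 0 for *Cd3d* (-0.0395 to 1.58), *Cd3g* (-0.35 to 0.77), *Cd8a* (-0.43 to 0.0927), *Cd8b1* (-0.33 to 0.72), *Lck* (-0.28 to 0.15), *Zap70* (-0.26 to 0.35) and *Gata3* (-0.46 to 0.0259), and ranges below 0 for *Cd3e* (-0.58 to -0.17), *Cd4* (-1.04 to -0.75) and *Foxp3* (-1.10 to -0.62). The length offset without YT-AKO 2, chosen after the data were seen, gave -0.28 for *Cd3d*, -0.41 for *Cd3g*, -0.59 for *Cd8b1* and -0.36 for *Zap70*. TPM, and the TPM ratios and correlations without YT-AKO 2, were likewise added after the data were seen.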
